A study of Rattus norvegicus with 20 samples.

Results

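The livers of 5 male rats given hydrocortisone and 5 male rats given vehicle were compared across all genes that carry a symbol, 10 of the 20 libraries of the series. The libraries were chosen by their labels alone. CON 1 to 5 are healthy rats given 0.5% sodium carboxymethylcellulose, and KYDS 1 to 5 are rats given hydrocortisone at 25 mg/kg and labelled as having kidney-yang deficiency syndrome, a diagnosis of Chinese medicine that the treatment is meant to model. The other 10 rats were given a powder called BGZ_L at 0.9 g/kg, alone (BGZ_L 1 to 5) or with the same dose of hydrocortisone (KYDS+BGZ_L 1 to 5). They enter the estimate of spread and serve as a second comparison of hydrocortisone with no hydrocortisone. Strain, age, route and length of treatment, and whether the hydrocortisone was given in the vehicle, are not stated in the labels. Nothing in them says more than that the rats were divided at random. Per-gene p-values rest on the spread between samples within groups, pooled over all 4 groups of 5.

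Hydrocortisone is cortisol given as a drug. It enters cells and binds the glucocorticoid receptor, a transcription factor that then acts at response elements in DNA and on other factors bound there. In liver, glucocorticoids are known for inducing enzymes that make glucose from lactate, glycerol and amino acids, for raising lipid synthesis and storage, and for dampening inflammatory genes.

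The deposited table of 32883 genes carries a name that speaks of raw counts. Its values have decimals, however, and each library sums to between 914343 and 983962. They were therefore read as TPM (transcripts normalised for length and for the library's total), a unit inferred here. Values here are TPM divided by a scaling factor per library, called scaled TPM here, and a log2 change is the difference of group means of log2(scaled TPM + 0.5) with its standard error, from limma fitted to all 20 libraries. Per-gene means are given with SD (n = 5 a group), and 2 means joined by against are those of KYDS and of CON. Mitochondrially encoded genes made up 65.6, 90.1, 80.8, 68.5 and 70.3% of summed TPM in CON 1 to 5 and 43.2, 45.2, 19.2, 68.9 and 35.3% in KYDS 1 to 5. The share was lower in KYDS by 32.7 percentage points (means 42.4% and 75.1%, exact permutation test, two-sided p = 0.0238, Benjamini-Hochberg adjusted p over 3 tests = 0.0238, smallest p possible 0.00794). KYDS 4 lies within the range of CON, and the other 4 lie below it. The scaling factor was 0.774 in CON and 1.72 in KYDS on average (exact permutation p = 0.00794), and the groups did not overlap. The share and the scaling move with the groups, and their part in the results was not tested beyond the fits named below. No counts are in the table, and sequencing depth is therefore unknown. From 9743 to 10777 genes reached 0.5 TPM in each of the 10 libraries.

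**Figure D1:**
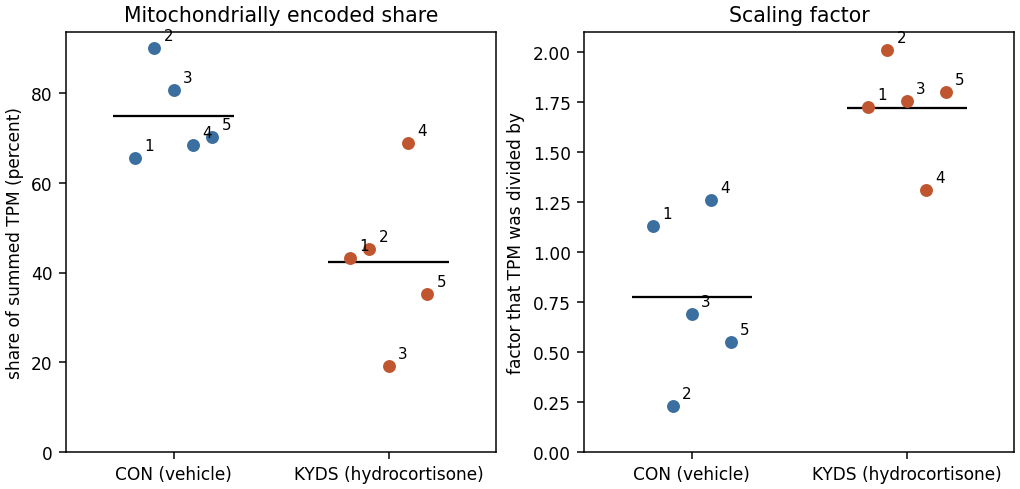
Share of summed TPM from mitochondrially encoded genes in percent (left) and the scaling factor (right) in CON and KYDS, 1 point per library with its replicate number, with horizontal lines at the group means. KYDS 4, at 68.9%, is the 1 hydrocortisone library within the vehicle range of 65.6% to 90.1%, and every KYDS factor is above every CON factor.

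Of 11869 genes tested, 744 passed at an adjusted p under 0.05 (6.27%). They were 386 that rose with hydrocortisone (3.25%) and 358 that fell (3.02%), and 629 of the 744 changed at least 2-fold. The median log2 change of all tested genes was 0.05. The values of the 5 KYDS and 5 CON libraries did not overlap for 770 genes (6.49% of those tested), among them 230 of the 386 risen and 238 of the 358 fallen genes. The balance of directions depends on the scaling: with no scaling between libraries 5933 genes passed, 5867 higher and 66 lower, around a median shift of 1.03, and with nuclear genes as the total 116 passed, 91 higher and 25 lower. Changes below are therefore relative to the median gene. Removing 1 of the 20 libraries moved the count between 224 (without KYDS 3, and also without KYDS 5) and 1075 (without CON 4), with 249 without CON 2. In all 10 fits that left out 1 CON or KYDS library, 170 genes passed (1.43% of those tested), 110 higher and 60 lower. When a covariate for each library's nuclear-to-mitochondrial TPM ratio (log2) was added, 23 passed, of which 21 were among the 744 and 20 among the 170. Where a named call did not hold in every fit without 1 library, the library whose removal gave the highest adjusted p is given with that p, and removal of others may end the call too.

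**Figure D2:**
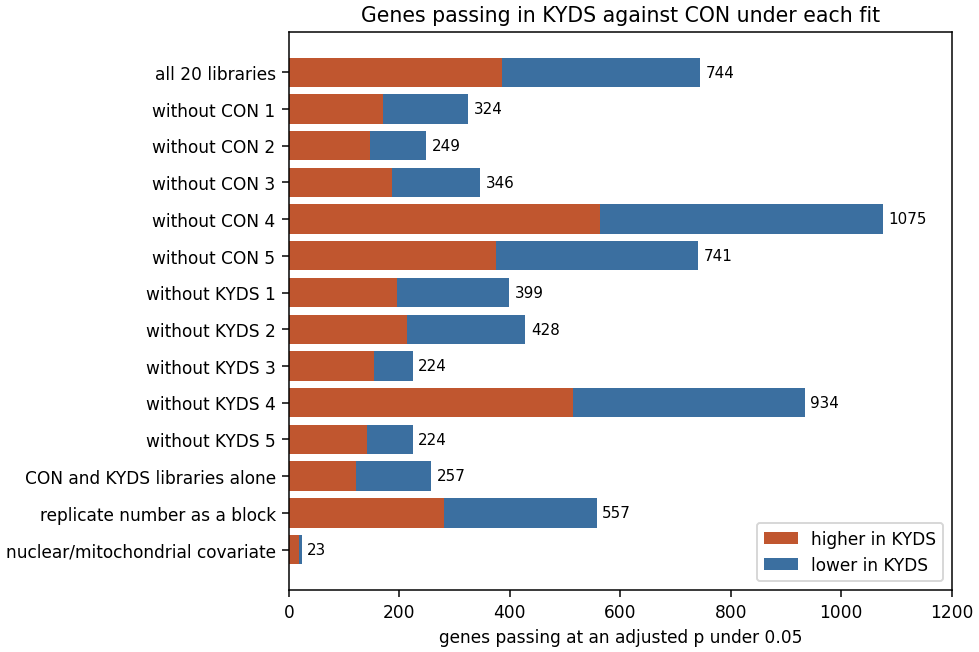
Number of genes passing in KYDS against CON at an adjusted p under 0.05 (horizontal axis), split into higher and lower, in the fit of all 20 libraries and in fits without 1 CON or KYDS library, with fewer groups, with a replicate block or with the covariate. The count runs from 23 with the covariate to 1075 without CON 4.

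The 12 risen genes with the largest log2 changes, among those with non-overlapping groups, a mean log2 level of at least 1 and a settled symbol, included genes of glucose output, of lipid storage and of bile acid synthesis. G6pc, the catalytic subunit of glucose-6-phosphatase, which releases free glucose as the last step of glucose production, was listed at 0, 0, 0, 22.7 and 0.236 in CON 1 to 5 and 122, 66.1, 29.4, 194 and 26.5 in KYDS 1 to 5. G6pc rose (log2 change 5.83 ± 0.98, adjusted p = 0.00261). CON 4 alone among the vehicle rats had G6pc above 1 scaled TPM, and all 5 KYDS values are above it. Ces2c, a carboxylesterase of the endoplasmic reticulum, stood at 0.645, 0.648, 0.188, 3.62 and 1.69 in CON 1 to 5 and 19.9, 19.1, 135, 10.6 and 34.1 in KYDS 1 to 5. Ces2c rose (log2 change 4.26 ± 0.58, adjusted p = 0.000487). KYDS 3 had the highest value, 135, and KYDS 4 the lowest of its group, 10.6. Gckr, the regulatory protein that holds glucokinase in the nucleus, measured 1.98, 10.9, 1.56, 3.95 and 5.25 in CON 1 to 5 and 52.2, 50.4, 28.4, 68.7 and 32.2 in KYDS 1 to 5. Gckr rose (log2 change 3.37 ± 0.40, adjusted p = 0.000142). Every hydrocortisone rat had at least 28.4 and no vehicle rat exceeded 10.9.

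Tymp, thymidine phosphorylase, measured 6.23, 8.34, 3.96, 14.2 and 15.9 in CON 1 to 5 and 113, 69.3, 57.4, 222 and 123 in KYDS 1 to 5, highest in KYDS 4. Tymp rose (log2 change 3.52 ± 0.47, adjusted p = 0.000487). Ldha, the muscle-type subunit of lactate dehydrogenase, measured 22.1, 22.3, 32.6, 20.5 and 19.7 in CON 1 to 5 and 60.9, 109, 348, 128 and 201 in KYDS 1 to 5. Ldha rose (log2 change 2.61 ± 0.42, adjusted p = 0.00204). CON was tight and KYDS spread widely, with KYDS 3 at the top. Inhbe, the inhibin beta E subunit that liver secretes, measured 8.33, 4.02, 1.78, 7.23 and 8.7 in CON 1 to 5 and 41.2, 39.8, 32, 24.6 and 21.8 in KYDS 1 to 5. Inhbe rose (log2 change 2.44 ± 0.41, adjusted p = 0.00261). G0s2, an inhibitor of the lipase that breaks down stored triglyceride, measured 17.2, 29.7, 6.37, 25.6 and 53.2 in CON 1 to 5 and 133, 133, 192, 82.4 and 71.1 in KYDS 1 to 5. G0s2 rose (log2 change 2.39 ± 0.48, adjusted p = 0.00984). Groups that do not overlap were a condition for naming these 4 genes and are no result. G0s2 came nearest to overlap as a ratio, with 53.2 in CON 5 and 71.1 in KYDS 5.

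Tuba1c, Cyp8b1, Nim1k and Ttr were also among the 12, of which 11 are described here. Tuba1c, an alpha-tubulin, measured 11.1 ± 3.92 in KYDS against 1.13 ± 1.07 in CON (log2 change 3.12 ± 0.83, adjusted p = 0.0344). Cyp8b1, the sterol 12-alpha-hydroxylase that sets the cholic acid part of bile acids, measured 3.72, 0.475, 3.01, 2.74 and 4.92 in CON 1 to 5 and 28.2, 19.3, 21.3, 12.2 and 19.3 in KYDS 1 to 5. Cyp8b1 rose (log2 change 2.72 ± 0.54, adjusted p = 0.0096). Nim1k, a protein kinase of the AMPK-related family, measured 5.2 ± 3.4 in KYDS against 0.322 ± 0.424 in CON (log2 change 2.68 ± 0.40, adjusted p = 0.001). Ttr, transthyretin, the carrier of thyroxine and of retinol-binding protein, ranged from 1079.8 to 13483 in KYDS against 509 to 917 in CON (log2 change 2.39 ± 0.61, adjusted p = 0.0302). The rise of Ttr and Tuba1c did not hold in all fits (highest adjusted p 0.086 for each, without KYDS 3), whereas G6pc, Ces2c, Gckr, Tymp, Ldha, Inhbe, G0s2, Cyp8b1 and Nim1k passed in each of the 20 fits without 1 library.

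**Figure D3:**
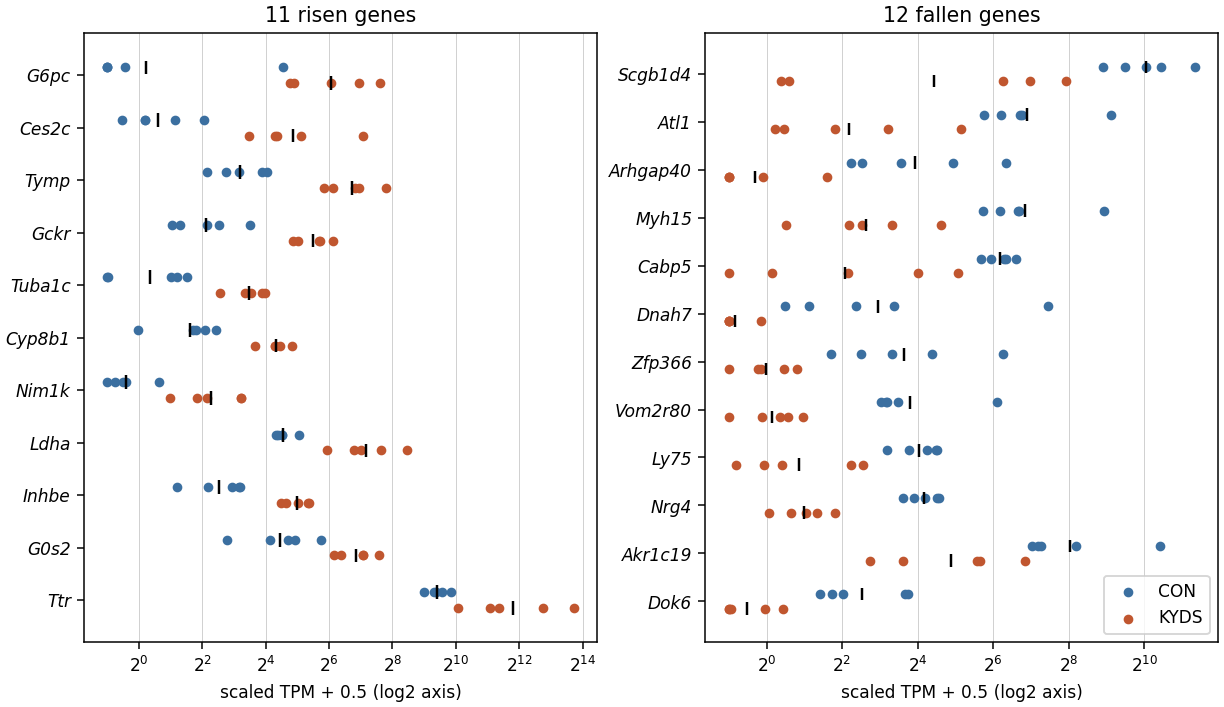
Scaled TPM plus 0.5 on a log2 axis for 11 of the 12 risen (left) and the 12 fallen (right) genes named by rule, 1 point per library, CON above KYDS in each row, with vertical bars at the means of the log2 values. CON 3 is the highest vehicle library in 9 of the 12 fallen genes, and KYDS 3 the highest hydrocortisone library in 5 of the 11 risen ones.

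Of genes of glucose production, the gluconeogenesis list, 5 rose and 0 fell of 19 tested (median log2 change 0.65, against 0.05 for all tested genes). Beside G6pc and Ldha these were Pc, Gpd1 and Creb3l3. The 5 are 26.3% of the list, against 6.27% of all tested genes. Counts of the lists below stand beside that same 6.27%, with 3.25% of tested genes rising and 3.02% falling. Pc, pyruvate carboxylase, which makes oxaloacetate from pyruvate as the entry step, measured 17.8, 12.6, 9.82, 13.1 and 18 in CON 1 to 5 and 38.2, 32.4, 52.1, 50.7 and 42 in KYDS 1 to 5. Pc rose (log2 change 1.57 ± 0.22, adjusted p = 0.000663). All 5 KYDS values are above all 5 CON values. Gpd1, the cytosolic glycerol-3-phosphate dehydrogenase that joins glycerol to the pathway, measured 50.8 ± 18.6 in KYDS against 17.3 ± 3.64 in CON (log2 change 1.48 ± 0.32, adjusted p = 0.014). Creb3l3, a liver transcription factor freed from the endoplasmic reticulum membrane, measured 85 ± 42.6 in KYDS against 31.3 ± 7.66 in CON (log2 change 1.34 ± 0.38, adjusted p = 0.0447, and 0.121 without KYDS 3). Pck1, phosphoenolpyruvate carboxykinase, a textbook glucocorticoid target, measured 109, 90.01, 118, 70.7 and 83.9 in CON 1 to 5 and 84.4, 69.9, 180.3, 88 and 96.8 in KYDS 1 to 5. Pck1 did not pass (log2 change 0.079 ± 0.33, adjusted p = 0.906). Its groups overlapped almost fully, and KYDS 3 alone exceeded the vehicle range.

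In the list of glucose sensing and glycolysis 4 rose and 1 fell of 19 tested (median 0.039). After Gckr the clearest was Pklr, liver pyruvate kinase, which runs the last step of glycolysis, at 1.93, 4.93, 1.14, 4.64 and 3.6 in CON 1 to 5 and 17.6, 9.52, 13.4, 16.9 and 9.26 in KYDS 1 to 5. Pklr rose (log2 change 1.97 ± 0.34, adjusted p = 0.00304). Khk, ketohexokinase, and Tkfc, triokinase, both enzymes of fructose breakdown, had means of 124 against 61.9 and 18 against 5.59 (log2 change 1.07, adjusted p = 0.0467, and log2 change 1.6, adjusted p = 0.0304). Pfkfb1, the liver enzyme that makes and removes fructose-2,6-bisphosphate, fell from 16.4 to 6.46 (log2 change -1.31 ± 0.36, adjusted p = 0.0393). Khk, Tkfc and Pfkfb1 each failed the threshold in at least 1 fit without a library. Khk had an adjusted p of 0.106 without KYDS 5. Tkfc had an adjusted p of 0.0883 without KYDS 3. Pfkfb1 had an adjusted p of 0.0884 without KYDS 1. Of the glycogen list 1 of 16 rose: Pygl, liver glycogen phosphorylase, which frees glucose units from glycogen, measured 3.58, 4.28, 3.89, 4.05 and 5.98 in CON 1 to 5 and 13.3, 11.1, 16.7, 15.6 and 10.2 in KYDS 1 to 5. The 1 call is 6.25% of the glycogen list, no more than the 6.27% of all tested genes. Pygl rose (log2 change 1.51 ± 0.20, adjusted p = 0.000487). Every KYDS value was at least 10.2 and no CON value exceeded 5.98, and the call held with the covariate (log2 change 1.62, adjusted p = 0.0124). Pgm1, which converts glucose-1-phosphate, had a mean of 12.3 against 6.75 (log2 change 0.77, adjusted p = 0.0706), and Phkb, a subunit of phosphorylase kinase, 6.45 against 11.1 (log2 change -0.84, adjusted p = 0.131).

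Gk, glycerol kinase, chosen for mention after its values were seen because its p is among the smallest of all, measured 2.86, 2.38, 3.36, 1.87 and 3.18 in CON 1 to 5 and 19.1, 10.9, 17.4, 12.8 and 16.6 in KYDS 1 to 5. Gk rose (log2 change 2.29 ± 0.25, adjusted p = 0.000121). The KYDS range of 10.9 to 19.1 stands clear of the CON range of 1.87 to 3.36.

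Of genes of fat synthesis 5 rose and 0 fell of 24 tested (median 0.53). Scd, stearoyl-CoA desaturase, which makes oleate, was listed at 0.0177, 0, 1.03, 0.0317 and 0.363 in CON 1 to 5 and 4.2, 2.55, 19.7, 6.05 and 4.87 in KYDS 1 to 5. Scd rose (log2 change 3.15 ± 0.52, adjusted p = 0.00216). The highest vehicle value was 1.03 in CON 3, and every hydrocortisone rat had at least 2.55. Srebf1, the sterol regulatory factor that drives this programme, measured 12 ± 5.79 in KYDS against 3.32 ± 3.08 in CON (log2 change 2.04 ± 0.49, adjusted p = 0.0223, and 0.0572 without CON 1). Elovl5, a fatty acid elongase, Dgat2, which adds the last acyl chain of triglyceride, and Agpat2, which makes phosphatidic acid, had KYDS and CON means of 15.4 against 4.28, 42.2 against 15.4 and 13.8 against 6.21. Their log2 changes were 1.67, 1.46 and 1.11 (adjusted p = 0.0146, 0.0146 and 0.031). Scd, Elovl5 and Dgat2 passed in every fit without 1 library, and Agpat2 did not (adjusted p 0.0883 without KYDS 3).

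Of genes of fatty acid oxidation and ketone bodies 7 rose and 0 fell of 41 tested (median 0.61). Bdh1, which converts acetoacetate to beta-hydroxybutyrate, measured 28.3, 22, 20.1, 25.4 and 26.1 in CON 1 to 5 and 69.9, 42.7, 52.2, 66.4 and 53.9 in KYDS 1 to 5. Bdh1 rose (log2 change 1.2 ± 0.19, adjusted p = 0.00174). For Bdh1 every KYDS value is above every CON value. Hadha, of the trifunctional protein of beta-oxidation, Etfdh, which passes electrons to ubiquinone, Acsl1, which activates fatty acids, and Plin2, a coat protein of lipid droplets, had log2 changes of 1.01, 1.09, 1.34 and 1.24 (adjusted p = 0.0437, 0.0433, 0.0437 and 0.0418). Those 4 calls were lost without at least 1 library. Hadha had an adjusted p of 0.118 without KYDS 3. Etfdh, Acsl1 and Plin2 had adjusted p-values of 0.115, 0.117 and 0.0958 without CON 2. Fabp1, the liver fatty acid binding protein, had a mean of 3739 against 1699 (log2 change 1.05, adjusted p = 0.118).

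Of lipoprotein genes 5 rose and 0 fell of 27 tested, with a median of 1.04 and 23 members above 0. Lipc, hepatic lipase, which trims lipoproteins in the liver sinusoids, measured 20.9, 29.7, 13.9, 30.2 and 31.3 in CON 1 to 5 and 110.5, 59.2, 103, 40.8 and 71.8 in KYDS 1 to 5. Lipc rose (log2 change 1.56 ± 0.30, adjusted p = 0.00818). Mttp, the transfer protein that loads lipid onto apolipoprotein B, measured 9.19 ± 4.33 in KYDS against 2.83 ± 1.08 in CON (log2 change 1.49 ± 0.39, adjusted p = 0.0323), and Apob itself 54.1 ± 21.1 in KYDS against 21.7 ± 5.7 in CON (log2 change 1.25 ± 0.35, adjusted p = 0.0388). Apoa4 ranged from 61.4 to 1035 in KYDS against 20.4 to 100.1 in CON (log2 change 2.38, adjusted p = 0.0477), and Apoc2, the cofactor of lipoprotein lipase, from 298 to 2443 in KYDS against 223 to 431 in CON (log2 change 1.61, adjusted p = 0.0492). Lipc passed in every fit without 1 library. The other 4 lost the call without KYDS 3 or CON 2. Mttp had an adjusted p of 0.0939 without CON 2. Apob, Apoa4 and Apoc2 had adjusted p-values of 0.108, 0.13 and 0.131 without KYDS 3.

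In glycerophospholipid metabolism 4 rose and 0 fell of 35 tested, Gpd1 and Agpat2 among them. Chka, choline kinase, the first step of phosphatidylcholine synthesis, measured 10.5 ± 5.51 in KYDS against 2.89 ± 2.64 in CON (log2 change 1.84 ± 0.41, adjusted p = 0.017). Etnk2, its ethanolamine counterpart, measured 52.1 ± 13.2 in KYDS against 25.4 ± 9.05 in CON (log2 change 1.06 ± 0.27, adjusted p = 0.0297, and 0.087 without CON 2). Of 23 cholesterol synthesis genes tested, Insig2, which retains the sterol sensor in the endoplasmic reticulum, rose (13.8 ± 6.5 in KYDS against 3.45 ± 1.9 in CON; log2 change 1.87 ± 0.39, adjusted p = 0.0127) and Mvk, mevalonate kinase, fell (0.467 ± 0.155 in KYDS against 1.14 ± 0.354 in CON; log2 change -0.75 ± 0.19, adjusted p = 0.0307, and 0.086 without KYDS 3). Nsdhl, a late enzyme of the pathway, had a mean of 20.8 against 11 (log2 change 0.96, adjusted p = 0.0748). Insig2 and Mvk make up 8.7% of the cholesterol list, near the 6.27% of all tested genes.

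Of bile acid genes 7 rose and 0 fell of 29 tested (median 0.57). Amacr, the racemase that readies bile acid intermediates for peroxisomal oxidation, measured 58, 35.2, 48.4, 39.9 and 72.2 in CON 1 to 5 and 163, 104, 133, 114 and 183 in KYDS 1 to 5. Amacr rose (log2 change 1.46 ± 0.25, adjusted p = 0.00259). Acox2, the peroxisomal oxidase of the same side chain, measured 32.6 ± 4.59 in KYDS against 14.4 ± 4.15 in CON (log2 change 1.19 ± 0.23, adjusted p = 0.00873). Hsd17b4, the bifunctional protein, measured 85.4 ± 25.1 in KYDS against 41.7 ± 9.75 in CON (log2 change 1.01 ± 0.27, adjusted p = 0.0369). Scp2, the thiolase that ends the sequence, measured 121 ± 73.7 in KYDS against 44.8 ± 11 in CON (log2 change 1.28 ± 0.35, adjusted p = 0.0379). Slc10a1, the sodium-dependent bile acid importer of the hepatocyte, ranged from 15.1 to 149 in KYDS against 5.51 to 26 in CON (log2 change 2.06, adjusted p = 0.0453), and Slco1a4, an organic anion importer, had a mean of 15 against 4.1 (log2 change 1.82, adjusted p = 0.0365). Amacr, Acox2 and Cyp8b1 passed in each fit without 1 library, and the others did not. Hsd17b4 and Slco1a4 had adjusted p-values of 0.105 and 0.103 without CON 2. Scp2 and Slc10a1 had adjusted p-values of 0.103 and 0.121 without KYDS 3. Cyp7a1, the enzyme that starts bile acid synthesis, measured 9.25, 2.55, 3.34, 36.7 and 26.3 in CON 1 to 5 and 7.79, 5.85, 2.04, 8.54 and 3.73 in KYDS 1 to 5. Cyp7a1 did not pass (log2 change -0.89 ± 0.65, adjusted p = 0.417; log2 change 0.27 without scaling). CON 4 and CON 5 stood far above all other libraries, CON 1 just above the highest KYDS value, and CON 2 and CON 3 within the hydrocortisone range. Akr1d1, the steroid 5-beta-reductase, had a mean of 36.4 against 64.3 (log2 change -0.78, adjusted p = 0.173; log2 change 0.57 without scaling).

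Of peroxisomal genes 4 rose and 0 fell of 28 tested, led by Hao2, a hydroxyacid oxidase (81.4 ± 42.1 in KYDS against 23.2 ± 6.51 in CON; log2 change 1.69 ± 0.31, adjusted p = 0.00524), and Agxt, which clears glyoxylate (58.6 ± 16.5 in KYDS against 23.5 ± 8.47 in CON; log2 change 1.32 ± 0.30, adjusted p = 0.018). Pex13, a subunit of the protein import pore, had a mean of 3.15 against 1.06 and Pxmp4, a membrane protein, 18.7 against 9.01 (log2 change 1.1, adjusted p = 0.0379, and log2 change 1.12, adjusted p = 0.0404). Hao2 and Agxt passed in every fit without 1 library, and Pex13 and Pxmp4 did not. Pex13 and Pxmp4 had adjusted p-values of 0.105 and 0.0987 without CON 2.

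Amino acid degrading enzymes rose in 7 members and fell in 1 of 57 tested (median 0.25). Kynu, kynureninase of the tryptophan pathway, measured 6.73, 10.7, 3.47, 5.53 and 6.72 in CON 1 to 5 and 24.7, 14.9, 20.1, 24.5 and 16.3 in KYDS 1 to 5, and the groups were apart. Kynu rose (log2 change 1.58 ± 0.26, adjusted p = 0.00259). Gldc, the decarboxylase of the glycine cleavage system, measured 1.7 ± 0.445 in KYDS against 0.355 ± 0.214 in CON (log2 change 1.38 ± 0.24, adjusted p = 0.00304). Dmgdh, which oxidises dimethylglycine, measured 49.3 ± 12.6 in KYDS against 17.5 ± 7.2 in CON (log2 change 1.55 ± 0.33, adjusted p = 0.0127). Bhmt, which remethylates homocysteine with betaine, measured 223 ± 43.1 in KYDS against 83.5 ± 46.4 in CON (log2 change 1.53 ± 0.34, adjusted p = 0.0174). Kynu, Gldc, Dmgdh, Bhmt and Agxt passed in every fit without 1 library. Amdhd1 of histidine breakdown and Mmut, methylmalonyl-CoA mutase, had log2 changes of 1.3 and 1.01 (adjusted p = 0.033 and 0.0469). Amdhd1 had an adjusted p of 0.0792 without CON 1. Mmut had an adjusted p of 0.128 without KYDS 3. Hal, histidase, had a mean of 24.6 against 13 (log2 change 1.00, adjusted p = 0.0617). The member that fell, Hpd of tyrosine breakdown, measured 476 ± 48.6 in KYDS against 942 ± 207 in CON (log2 change -0.96 ± 0.24, adjusted p = 0.0289, and 0.0771 without CON 2), with a log2 change of 0.41 where libraries were not scaled. Tat, tyrosine aminotransferase, a textbook glucocorticoid-induced enzyme, measured 64.4, 53.4, 51.1, 121 and 96.8 in CON 1 to 5 and 123, 91.1, 115, 94.2 and 68.1 in KYDS 1 to 5, with overlapping groups. Tat did not pass (log2 change 0.40 ± 0.27, adjusted p = 0.387).

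In the urea cycle and nitrogen list 2 rose and 0 fell of 16 tested: Slc25a13, the mitochondrial aspartate-glutamate carrier, measured 20.4 ± 4.76 in KYDS against 8.63 ± 2.1 in CON (log2 change 1.19 ± 0.24, adjusted p = 0.01). Glud1, glutamate dehydrogenase, measured 97.2 ± 22.7 in KYDS against 48.5 ± 15.9 in CON (log2 change 1.05 ± 0.31, adjusted p = 0.0477, and 0.127 without CON 1). Transporters for amino acids and other nutrients rose in 8 and fell in 1 of 56 (median 0.58). Slc34a2, a sodium-phosphate cotransporter, rose from 0.447 to 1.93 (log2 change 1.34 ± 0.25, adjusted p = 0.00557) and passed in every fit without 1 library. Slc6a9, a glycine transporter, measured 7.53 ± 3.91 in KYDS against 1.54 ± 0.874 in CON (log2 change 2.02 ± 0.45, adjusted p = 0.0178). The mitochondrial carriers Slc25a10, Slc25a25 and Slc25a47 had log2 changes of 1.02, 2.04 and 1.31 (adjusted p = 0.0232, 0.0297 and 0.0282). Without 1 library these calls ended. Slc6a9 had an adjusted p of 0.0533 without KYDS 3. Slc25a10, Slc25a25 and Slc25a47 had adjusted p-values of 0.0678, 0.0897 and 0.0784 without CON 2. Slc38a4, an amino acid transporter, had a mean of 26.7 against 10.2 (log2 change 1.33, adjusted p = 0.0867).

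Of genes of heme and metal handling 5 rose and 0 fell of 30 tested. Hfe, the haemochromatosis protein, measured 2.77 ± 1.05 in KYDS against 0.579 ± 0.42 in CON (log2 change 1.62 ± 0.34, adjusted p = 0.0121). Steap3, an iron reductase, measured 1.4 ± 0.806 in KYDS against 0.182 ± 0.107 in CON (log2 change 1.39 ± 0.32, adjusted p = 0.0188). Slc30a1, a zinc exporter, measured 1.14 ± 0.366 in KYDS against 0.355 ± 0.275 in CON (log2 change 0.97 ± 0.27, adjusted p = 0.0379). The zinc and iron importers Slc39a8 and Slc39a14 had means of 5.44 against 1.78 and 7.51 against 2.54 (log2 change 1.32, adjusted p = 0.0354, and log2 change 1.78, adjusted p = 0.0467). Tf, transferrin, the iron carrier of plasma, ranged from 1113 to 4099 in KYDS against 655 to 887 in CON (log2 change 1.4, adjusted p = 0.0465). Slc39a8 is counted with the transporters. Hfe alone of these 6 passed in every fit without 1 library. Steap3 and Tf had adjusted p-values of 0.0579 and 0.123 without KYDS 3. Slc30a1, Slc39a8 and Slc39a14 had adjusted p-values of 0.11, 0.106 and 0.125 without CON 2.

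Of nucleotide genes 2 rose and 2 fell of 40 tested. Beside Tymp, Nt5e, which turns AMP outside the cell into adenosine, rose (9.36 ± 2.9 in KYDS against 3.8 ± 1.01 in CON; log2 change 1.16 ± 0.27, adjusted p = 0.0188). Upp2, uridine phosphorylase, fell (2.72 ± 0.941 in KYDS against 9.25 ± 7.27 in CON; log2 change -1.43 ± 0.35, adjusted p = 0.026), and so did Gda, guanine deaminase (1.88 ± 0.542 in KYDS against 4.25 ± 2.03 in CON; log2 change -0.94 ± 0.26, adjusted p = 0.0417; log2 change 0.17 without scaling). Tymp held in every fit without 1 library and the others did not. Nt5e had an adjusted p of 0.0543 without KYDS 5. Upp2 and Gda had adjusted p-values of 0.0502 and 0.0908 without CON 3.

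Drug metabolism changed in both directions. In the cytochrome P450 list 4 rose and 2 fell of 43 tested (median 0.59). Cyp17a1, a steroid hydroxylase, measured 8.36 ± 4.11 in KYDS against 2.18 ± 2.27 in CON (log2 change 1.97 ± 0.46, adjusted p = 0.021). Cyp2b3 measured 62.2 ± 18.7 in KYDS against 19.7 ± 11.8 in CON (log2 change 1.82 ± 0.46, adjusted p = 0.0292). Cyp4v3, a fatty acid hydroxylase, measured 5.88 ± 1.72 in KYDS against 2.07 ± 0.976 in CON (log2 change 1.34 ± 0.34, adjusted p = 0.0283). Cyp2c12, known as a female-biased enzyme in rats, measured 15.9 ± 4.96 in KYDS against 5.74 ± 2.97 in CON (log2 change 1.47 ± 0.43, adjusted p = 0.0482). Cyp4b1 fell from 17.3 to 7.61 (log2 change -1.17 ± 0.28, adjusted p = 0.0232; log2 change 0.11 without scaling). Nr1i3, the receptor CAR that controls many of these enzymes, fell from 46 to 19 (log2 change -1.37 ± 0.41, adjusted p = 0.0497). None of these 6 passed in every fit without 1 library. Cyp17a1 had an adjusted p of 0.0532 without CON 3. Cyp2b3 and Cyp2c12 had adjusted p-values of 0.0873 and 0.12 without CON 2. Cyp4v3 and Nr1i3 had adjusted p-values of 0.0767 and 0.131 without KYDS 5. Cyp4b1 had an adjusted p of 0.068 without KYDS 3. Among conjugation enzymes 1 of 37 changed, 2.7% against 6.27% of all tested genes. Sult1c2, a sulfotransferase, fell from 2.35 to 0.479 (log2 change -1.4 ± 0.41, adjusted p = 0.0467, and 0.113 without CON 2). Mgst1 and Mgst3, microsomal glutathione transferases, had means of 615 against 175 and 82.1 against 23.4 (log2 change 1.57, adjusted p = 0.0748, and log2 change 1.49, adjusted p = 0.0591). Of the hydrolases Ces2c and Lipc rose, and Aadac, a deacetylase, had a mean of 12.2 against 4.25 (log2 change 1.38, adjusted p = 0.0519).

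Of 45 coagulation and complement genes 9 rose and 0 fell (median 0.95). C1s, a protease that starts the classical complement pathway, measured 6.34, 3.5, 5.71, 6.84 and 10.5 in CON 1 to 5 and 20.8, 16.7, 29.2, 19.8 and 20.8 in KYDS 1 to 5. C1s rose (log2 change 1.68 ± 0.30, adjusted p = 0.00391). C2, the next protease of that pathway, measured 12.4 ± 5.55 in KYDS against 2.72 ± 0.512 in CON (log2 change 1.91 ± 0.41, adjusted p = 0.0145). Both passed in every fit without 1 library. C6 and C8b of the membrane attack complex had means of 41.3 against 6.75 and 48.4 against 11.8 (log2 change 2.25, adjusted p = 0.0206, and log2 change 2.07, adjusted p = 0.0218), F2, prothrombin, 217 against 48.4 (log2 change 1.88, adjusted p = 0.0467), and F13b, of the fibrin-crosslinking factor, 15 against 3.66 (log2 change 1.78, adjusted p = 0.0295). C1r, C4bpa and Pros1 had log2 changes of 1.07, 1.49 and 1.3 (adjusted p = 0.0467, 0.0362 and 0.0386). These 7 lost the call without KYDS 3 or CON 2. C6, F2 and C1r had adjusted p-values of 0.0609, 0.126 and 0.123 without KYDS 3. C8b, F13b, C4bpa and Pros1 had adjusted p-values of 0.063, 0.0873, 0.103 and 0.113 without CON 2.

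Of the acute phase list 3 rose and 0 fell of 24 tested (median 0.71). Orm1, alpha-1-acid glycoprotein, measured 118, 126, 69.9, 119 and 113 in CON 1 to 5 and 632, 324, 1466, 131 and 865 in KYDS 1 to 5. Orm1 rose (log2 change 2.25 ± 0.54, adjusted p = 0.0226). KYDS 4, at the bottom of its group, was just above the highest CON value. Fga, the fibrinogen alpha chain, ranged from 51.7 to 403 in KYDS against 16.2 to 58.6 in CON (log2 change 2.02, adjusted p = 0.0338) and A2m, alpha-2-macroglobulin, from 0.519 to 25.1 in KYDS against 0 to 0.618 in CON (log2 change 2.41, adjusted p = 0.0456). All 3 failed the threshold in at least 1 fit without a library. Orm1 and Fga had adjusted p-values of 0.0658 and 0.0972 without KYDS 3. A2m had an adjusted p of 0.119 without KYDS 5. Hp, haptoglobin, ranged from 2173 to 11922 in KYDS against 288 to 4185 in CON (log2 change 1.86, adjusted p = 0.0751). In the plasma carrier list 2 rose and 0 fell of 20 tested, Ttr and Tf. Among the 10 nuclear genes with the highest mean level over CON and KYDS, Ttr alone passed. Alb, albumin, measured 4845, 3627, 1862, 3242 and 3642 in CON 1 to 5 and 10190.0, 6799, 34445, 1926 and 14976 in KYDS 1 to 5, so KYDS 4 sat within the vehicle range while KYDS 3 stood highest. Alb did not pass (log2 change 1.5 ± 0.59, adjusted p = 0.125). Apoe, Apoc3 and Apoa2, apolipoproteins, had log2 changes of 1.46, 1.54 and 0.37 (adjusted p = 0.147, 0.0947 and 0.706). Mup5 and Rup2, secreted urinary proteins, had 0.85 and 1.4 (adjusted p = 0.221 and 0.108), and Rn5-8s, a ribosomal RNA, -1.01 (adjusted p = 0.615; log2 change 0.35 without scaling). KYDS 3 was the highest hydrocortisone library for 46.4% of the 386 risen genes and for 30.9% of all tested genes.

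**Figure D4:**
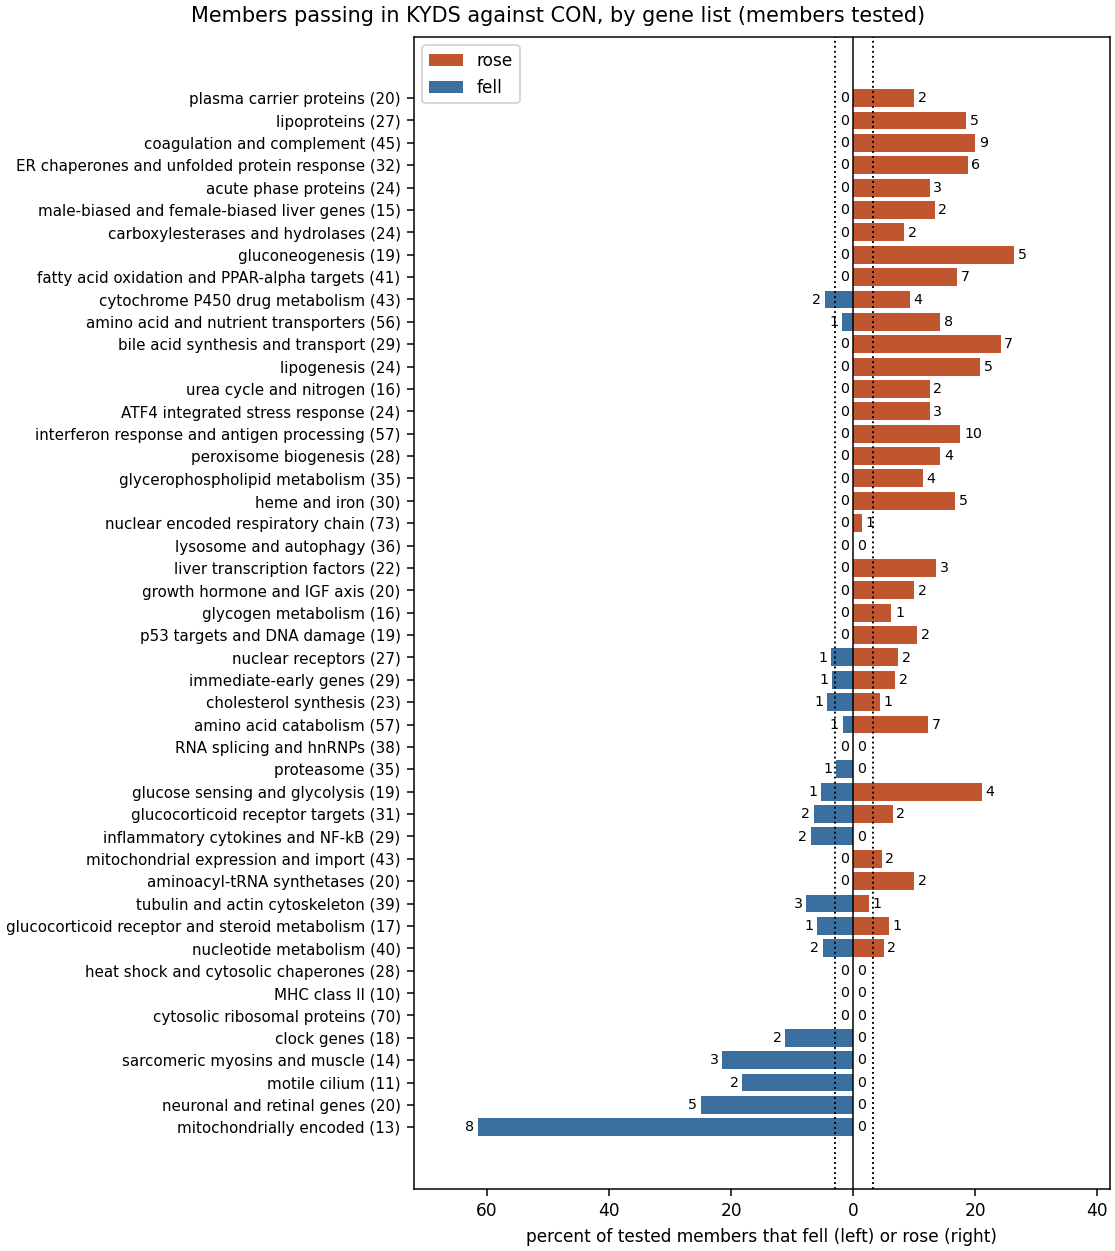
Percent of the tested members of each gene list that rose (right) or fell (left) in KYDS against CON, with the counts at the bar ends, members tested in parentheses, lists ordered by median log2 change, and dotted lines at the 3.25% and 3.02% of all tested genes that rose and fell. The mitochondrially encoded genes, with 8 of 13 fallen, lie at the bottom, and plasma carriers and lipoproteins at the top.

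Of interferon-responsive and antigen processing genes 10 rose and 0 fell of 57 tested (17.5% against 6.27% of all genes; median 0.42). These genes are induced through STAT and IRF factors at a short repeat in their promoters, the interferon-stimulated response element. Igtp, an interferon-induced GTPase, measured 7.47, 7.13, 10.3, 6.2 and 9.96 in CON 1 to 5 and 20.6, 16.9, 23.8, 24.7 and 21.5 in KYDS 1 to 5. Igtp rose (log2 change 1.35 ± 0.21, adjusted p = 0.00163). Tap1, which pumps peptides to MHC class I, measured 1.42, 0.605, 0.723, 2.68 and 1.85 in CON 1 to 5 and 3.63, 5.04, 4.92, 4.45 and 4.53 in KYDS 1 to 5. Tap1 rose (log2 change 1.46 ± 0.27, adjusted p = 0.00615). Irgm, another GTPase of that family, measured 2.33 ± 0.481 in KYDS against 0.68 ± 0.237 in CON (log2 change 1.27 ± 0.26, adjusted p = 0.012). Usp18, which takes ISG15 off proteins, measured 2.99 ± 1.07 in KYDS against 0.773 ± 0.2997 in CON (log2 change 1.44 ± 0.25, adjusted p = 0.00351). KYDS and CON did not overlap for any of these 4, as for 230 of the 386 risen genes. Igtp, Tap1, Irgm and Usp18 passed in every fit without 1 library. Igtp also passed with the covariate (log2 change 1.44, adjusted p = 0.0384).

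B2m, the light chain of MHC class I, ranged from 203 to 558 in KYDS against 69.7 to 212 in CON (log2 change 1.68, adjusted p = 0.0195), and Ifi27 from 334 to 933 in KYDS against 128 to 454 in CON (log2 change 1.25, adjusted p = 0.0487). Isg15, the ubiquitin-like modifier, Rtp4, a chaperone of receptor transport, Parp9, an ADP-ribosylation factor, and Trim21, a cytosolic antibody receptor, had log2 changes of 1.41, 1.31, 1.18 and 0.83 (adjusted p = 0.0492, 0.0288, 0.0467 and 0.049). The groups overlapped for each of B2m, Ifi27, Isg15, Rtp4, Parp9 and Trim21, and each lost the call without 1 library. B2m, Isg15 and Trim21 had adjusted p-values of 0.0598, 0.129 and 0.135 without CON 2. Ifi27 had an adjusted p of 0.118 without KYDS 5. Rtp4 and Parp9 had adjusted p-values of 0.0708 and 0.112 without CON 1. Of 10 MHC class II genes tested 0 passed with limma, and 0 had an unadjusted p under 0.05, against 24.1% of all tested genes.

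Promoters of 276 of the 386 risen genes were found by symbol in the RefSeq table for GRCr8, which gives 250 bases before to 50 after each gene's start. The interferon-stimulated response element was searched as GAAANNGAAA on both strands. It is in 3.77% of 27457 promoters, in 29 of 45 promoters of the interferon list and in 6 of the 7 risen members that have one. Of all risen genes' promoters 13 of 276 hold it (4.71%), of fallen genes' 9 of 244 (3.69%), and of tested genes' 3.03%. The stretches are shown because they belong to the risen members, with the match in capitals and up to 25 bases either side, 5′ to 3′ on the gene's strand. A match describes letters and not binding.
Igtp: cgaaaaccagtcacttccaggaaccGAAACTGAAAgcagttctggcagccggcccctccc
Irgm: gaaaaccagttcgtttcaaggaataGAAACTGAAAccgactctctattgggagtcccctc
Tap1: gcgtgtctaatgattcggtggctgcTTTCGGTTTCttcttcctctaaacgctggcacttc
B2m: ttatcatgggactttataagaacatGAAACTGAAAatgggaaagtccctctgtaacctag
Trim21: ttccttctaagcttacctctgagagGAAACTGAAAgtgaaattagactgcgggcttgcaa
Ifi27: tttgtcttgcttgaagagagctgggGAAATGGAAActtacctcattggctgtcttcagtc
These lie at chr10:42874919-42874978, chr10:33742578-33742637, chr20:4668630-4668689, chr3:129549155-129549214, chr1:166399355-166399414 and chr6:128355203-128355262. The match starts at -103, -34, -121, -150, -18 and -84 from the gene's start, and in Tap1 it is on the opposite strand. Another match, not in capitals, starts at -12 in Trim21, where it overlaps the one shown, and at -169 in Ifi27, outside the stretch shown. Igtp, Irgm, B2m and Trim21 hold the same 10 letters. Most of the 29 list promoters with the element belong to genes that did not rise.

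Of the cytokine and NF-kB list 0 rose and 2 fell of 29 tested, a share near the 6.27% of all tested genes. Irak3, a brake on Toll-like receptor signalling, fell (1.6 ± 0.948 in KYDS against 11.6 ± 12.7 in CON; log2 change -2.15 ± 0.60, adjusted p = 0.0393), and Nfkbia, the inhibitor that holds NF-kB in the cytosol and is often named as glucocorticoid-induced, fell (15, 12.1, 14.2, 16.6 and 14.4 in CON 1 to 5 and 7.78, 10.6, 8.47, 10.9 and 7.26 in KYDS 1 to 5; log2 change -0.66 ± 0.19, adjusted p = 0.044; log2 change 0.63 without scaling). Both calls were lost without 1 library. Irak3 had an adjusted p of 0.103 without KYDS 3. Nfkbia had an adjusted p of 0.111 without KYDS 5. Myd88, an adaptor of Toll-like receptors, had a mean of 4.12 against 2.23 (log2 change 0.74, adjusted p = 0.0814).

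Of stress genes under ATF4 3 rose and 0 fell of 24 tested (median 0.42). Atf5, a transcription factor whose translation rises when eIF2 is phosphorylated, measured 38.4, 41.4, 49.6, 23.1 and 36.2 in CON 1 to 5 and 152, 156, 205, 124 and 220.4 in KYDS 1 to 5. Atf5 rose (log2 change 2.18 ± 0.30, adjusted p = 0.000523). The groups are far apart, the call held in every fit without 1 library and with the covariate (log2 change 2.23, adjusted p = 0.0197). Sesn2, an inhibitor of mTORC1, measured 6.28 ± 2.68 in KYDS against 1.83 ± 1.21 in CON (log2 change 1.63 ± 0.39, adjusted p = 0.0232). Chac1, which degrades glutathione, measured 0.831 ± 0.631 in KYDS against 0.0785 ± 0.0792 in CON (log2 change 1.07 ± 0.30, adjusted p = 0.0447), a level near the bottom of the scale. Sesn2 had an adjusted p of 0.0563 without CON 3. Chac1 had an adjusted p of 0.103 without CON 2. Of 20 aminoacyl-tRNA synthetases Aars and Tars1 rose (15.6 ± 1.99 in KYDS against 8.94 ± 1.72 in CON for Aars, log2 change 0.78, adjusted p = 0.0188; 13.4 ± 5.34 in KYDS against 6.75 ± 1.06 in CON for Tars1, log2 change 0.86, adjusted p = 0.0474), Cars had a mean of 3.76 against 2.6 (log2 change 0.50, adjusted p = 0.165), and both risen genes lost the call without 1 library. Aars had an adjusted p of 0.0527 without CON 1. Tars1 had an adjusted p of 0.128 without KYDS 3.

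Of chaperones and other genes of the unfolded protein response 6 rose and 0 fell of 32 tested, 29 of them above 0 (median 0.85). Hspa5, the main chaperone of the endoplasmic reticulum, measured 15.7, 9.64, 11.7, 17.7 and 13.6 in CON 1 to 5 and 19.7, 36.7, 72.7, 15.7 and 37 in KYDS 1 to 5, with KYDS 4 within the vehicle range and the other 4 above it. Hspa5 rose (log2 change 1.21 ± 0.36, adjusted p = 0.0492). Sel1l, Derl1, Derl2, Selenos and Herpud1, which extract and degrade misfolded proteins, had log2 changes of 1.7, 1.28, 1.54, 1.19 and 1.1 (adjusted p = 0.0365, 0.0467, 0.0338, 0.0337 and 0.0497). None of the 6 passed in every fit without 1 library. Hspa5, Derl1 and Derl2 had adjusted p-values of 0.13, 0.123 and 0.0972 without KYDS 3. Sel1l, Selenos and Herpud1 had adjusted p-values of 0.097, 0.0975 and 0.125 without CON 2.

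Elements of these responses were searched in the same promoters. The C/EBP-ATF response element TTGCATCA, at which ATF4 acts, is in 0.743% of promoters, in 0.66% of those of tested genes and in 4 of 22 of the ATF4 list. It is in 5 of the 276 risen genes' promoters (1.81%), those of Aqp8, Chac1, Herpud1, Inhbe and Tars1, and in 2 of 244 of fallen genes (0.82%). The endoplasmic reticulum stress element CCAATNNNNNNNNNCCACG, bound by NF-Y and ATF6, is in 0.0765% of promoters, in 8 of 25 of the chaperone list and in 1 risen member, Hspa5. The stretches below are those of Chac1, Inhbe, Herpud1, Tars1 and Hspa5, shown because these risen genes are described above, which Aqp8 is not, with the element in capitals.
Chac1: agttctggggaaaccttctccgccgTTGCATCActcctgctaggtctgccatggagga
Inhbe: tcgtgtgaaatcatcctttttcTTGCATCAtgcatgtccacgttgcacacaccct
Herpud1: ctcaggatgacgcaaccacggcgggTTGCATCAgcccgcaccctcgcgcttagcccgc
Tars1: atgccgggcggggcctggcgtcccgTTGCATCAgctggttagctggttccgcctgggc
Hspa5: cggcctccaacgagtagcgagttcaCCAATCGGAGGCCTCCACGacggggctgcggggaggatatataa
They lie at chr3:126795939-126795996, chr7:65064715-65064769, chr19:10614859-10614916, chr2:62114797-62114854 and chr3:38452948-38453016, with the element starting at -167, -228, -184, -27 and -43 from the gene's start. Inhbe had separate groups, which was a condition for naming it. Chac1 had them only narrowly and near the floor, with 0.182 the highest CON and 0.191 the lowest KYDS value. The values of Herpud1, Tars1 and Hspa5 overlapped with the vehicle group.

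Of the listed targets of the glucocorticoid receptor 2 rose and 2 fell of 31 tested, with a median of 0.0072 beside 0.05 for all genes. Dusp1, a phosphatase that switches off MAP kinases, measured 9.62, 6.87, 5.37, 31.8 and 17.9 in CON 1 to 5 and 48.9, 53.8, 48.9, 59.9 and 55.1 in KYDS 1 to 5. Dusp1 rose (log2 change 2.15 ± 0.42, adjusted p = 0.00859). KYDS was tight between 48.9 and 59.9 and no vehicle rat exceeded 31.8. Errfi1, an inhibitor of the EGF receptor, measured 139.9 ± 29.3 in KYDS against 65.5 ± 39.9 in CON (log2 change 1.29 ± 0.36, adjusted p = 0.0396, and 0.116 without CON 2). Anxa1, the anti-inflammatory annexin, measured 8.34, 17.1, 6.63, 5.65 and 4.18 in CON 1 to 5 and 3.29, 2.85, 1.72, 1.8 and 2.1 in KYDS 1 to 5. Anxa1 fell (log2 change -1.51 ± 0.34, adjusted p = 0.0178). Dusp1 and Anxa1 passed in all 10 fits without 1 CON or KYDS library. Fkbp5, the receptor's co-chaperone and a common read-out of its activity, measured 0.936, 1.43, 2.27, 2.39 and 0.963 in CON 1 to 5 and 0.619, 0.592, 0.87, 1.59 and 0.799 in KYDS 1 to 5. Fkbp5 did not pass (log2 change -0.57 ± 0.25, adjusted p = 0.171; log2 change 0.29 without scaling). Tsc22d3, known as GILZ, measured 5.72, 4.41, 8.001, 8.39 and 6.1 in CON 1 to 5 and 1.94, 4.89, 9.77, 4.53 and 2.45 in KYDS 1 to 5. Tsc22d3 did not pass (log2 change -0.59 ± 0.33, adjusted p = 0.294; log2 change 0.60 without scaling). For both the groups overlapped.

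The glucocorticoid response element, searched as GNACANNNTGTNC, is in 0.4225% of promoters and in 0 of 26 promoters of the target list. It is in 1 of the 276 risen genes' promoters (0.362%), that of Orm1, in 2 of 244 of fallen genes (0.82%) and in 0.306% of those of tested genes. The cyclic AMP response element TGACGTCA is in 1.91% of promoters and in 3.03% of those of tested genes. It is in 10 of the 276 (3.62%), among them Dusp1, Ldha, Elovl5, Pex13 and Slc25a25, and in 8 of 244 promoters of fallen genes (3.28%). The stretches of Orm1, Dusp1 and Ldha are shown as examples. Those of Elovl5, Pex13 and Slc25a25, which are also described above, are not shown.
Orm1: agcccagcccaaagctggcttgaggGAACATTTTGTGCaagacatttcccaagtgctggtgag
Dusp1: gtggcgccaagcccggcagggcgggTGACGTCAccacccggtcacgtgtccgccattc
Ldha: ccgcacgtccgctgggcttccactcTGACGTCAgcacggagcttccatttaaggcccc
They lie at chr5:81788354-81788416, chr10:17184704-17184761 and chr1:106508016-106508073, with the element starting at -130, -124 and -51 from the gene's start. Such a window leaves out enhancers, where many receptor sites are known to lie.

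Of the genes of the receptor itself and of steroid handling 1 rose and 1 fell of 17 tested. Nr3c1, the glucocorticoid receptor, measured 2.83, 1.47, 2.17, 1.76 and 1.78 in CON 1 to 5 and 2.95, 2.66, 4.42, 1.35 and 3.03 in KYDS 1 to 5. Nr3c1 did not pass (log2 change 0.39 ± 0.26, adjusted p = 0.361). Hsd11b1, which regenerates active glucocorticoid in liver, measured 64.9, 46.1, 34.6, 73.7 and 88.4 in CON 1 to 5 and 116, 114, 203, 99.1 and 194 in KYDS 1 to 5. Hsd11b1 rose (log2 change 1.25 ± 0.37, adjusted p = 0.0482). Ncoa3, a coactivator, fell from 4.42 to 1.33 (log2 change -1.54 ± 0.42, adjusted p = 0.0369). Neither call held in every fit without 1 library. Hsd11b1 and Ncoa3 had adjusted p-values of 0.123 and 0.105 without KYDS 3. Of other nuclear receptors 2 rose and 1 fell of 27 tested: Rara, a retinoic acid receptor, and Nr2f6, an orphan receptor, had log2 changes of 0.75 and 1.05 (adjusted p = 0.0289 and 0.0338). Rara had an adjusted p of 0.0684 without KYDS 5. Nr2f6 had an adjusted p of 0.0909 without KYDS 3. Foxa3, a liver transcription factor, measured 8.66 ± 2.02 in KYDS against 3.88 ± 1.59 in CON (log2 change 1.12 ± 0.29, adjusted p = 0.033, and 0.086 without KYDS 3).

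Of genes of the growth hormone axis 2 rose and 0 fell of 20 tested. Igf1, the growth factor that liver secretes under growth hormone, measured 40.2, 27.5, 34.1, 27.4 and 38.6 in CON 1 to 5 and 130.4, 72.3, 161, 27.8 and 147 in KYDS 1 to 5, with KYDS 4 among the lowest vehicle values and the other 4 above the vehicle range. Igf1 rose (log2 change 1.45 ± 0.42, adjusted p = 0.0467). Ghr, the growth hormone receptor, measured 77.2 ± 48.3 in KYDS against 24.7 ± 4.96 in CON (log2 change 1.42 ± 0.40, adjusted p = 0.0433). Neither held in every fit without 1 library. Igf1 and Ghr had adjusted p-values of 0.123 and 0.118 without KYDS 3. Igf2r had a mean of 0.606 against 0.278 (log2 change 0.54, adjusted p = 0.119).

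Of clock genes 0 rose and 2 fell of 18 tested. Per2, a repressor of the clock, fell from 13.9 to 5.66 (log2 change -1.22 ± 0.30, adjusted p = 0.0254; log2 change 0.046 without scaling), and Cry1, its partner, from 21.5 to 5.55 (log2 change -1.78 ± 0.47, adjusted p = 0.0323). Both lost the call without 1 library. Per2 had an adjusted p of 0.0737 without KYDS 3. Cry1 had an adjusted p of 0.0938 without CON 2. Tef, a clock output factor, had a mean of 8.61 against 13.7 (log2 change -0.64, adjusted p = 0.0622; log2 change 0.65 without scaling). The hour of sampling is not stated in the labels. Of immediate-early genes 2 rose and 1 fell of 29 tested: beside Dusp1, Jun measured 12.4 ± 5.88 in KYDS against 4.96 ± 4.19 in CON (log2 change 1.4 ± 0.40, adjusted p = 0.0437). Maff measured 0.519 ± 0.254 in KYDS against 1.41 ± 0.471 in CON (log2 change -0.91 ± 0.26, adjusted p = 0.0467), both lost without 1 library. Jun had an adjusted p of 0.113 without CON 2. Maff had an adjusted p of 0.118 without KYDS 3. Of p53 targets Eda2r, a receptor of the TNF family, rose with Sesn2 (4.39 ± 2.36 in KYDS against 0.693 ± 0.95 in CON; log2 change 2.26 ± 0.67, adjusted p = 0.0497, and 0.126 without KYDS 3), and Polk, a DNA polymerase, had a mean of 0.34 against 0.59 (log2 change -0.38, adjusted p = 0.287; log2 change 0.18 without scaling). Of 22 cell cycle genes Mcm7, of the replicative helicase, fell (2.92 ± 0.659 in KYDS against 6.71 ± 2.65 in CON; log2 change -1.03 ± 0.25, adjusted p = 0.0222; log2 change 0.19 without scaling; 0.0628 without CON 2), and Ccnd2 and Cdkn2c had log2 changes of -0.66 and -0.86 (adjusted p = 0.143 and 0.125). Nfe2l2, the antioxidant regulator NRF2, rose from 3.21 to 6.23 (log2 change 0.87 ± 0.25, adjusted p = 0.0467, and 0.117 without CON 1), the 1 call of 22 in that list, where Taldo1 and Keap1 had 0.86 and 0.45 (adjusted p = 0.0675 and 0.359). The share called was 4.55% in both the NRF2 and the cell cycle list, against 6.27% of all tested genes.

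The 13 mitochondrially encoded genes, which give core proteins of the respiratory chain and the ATP synthase, were lower in KYDS in 13 of 13, and 8 fell at the threshold (61.5% against 6.27%; median -2.35). They are the genes of the mitochondrial share given above, so their fall and the lower share are not separate results. The scaling factors, 0.774 in CON and 1.72 in KYDS on average, also enter these log2 changes. Mt-nd4l, a complex I subunit, measured 8234, 73244, 20253, 7832 and 14267 in CON 1 to 5 and 3044, 3316, 1241, 5936 and 2219 in KYDS 1 to 5. Mt-nd4l fell (log2 change -2.6 ± 0.57, adjusted p = 0.0146). Mt-atp8 of the ATP synthase measured 47142 ± 29812 in KYDS against 325251 ± 297447 in CON (log2 change -2.54 ± 0.58, adjusted p = 0.0188). Mt-nd2 measured 9067 ± 4751 in KYDS against 57498 ± 53753 in CON (log2 change -2.48 ± 0.58, adjusted p = 0.0207). Mt-co1, of cytochrome oxidase, measured 54668 ± 41238 in KYDS against 297597 ± 266119 in CON (log2 change -2.27 ± 0.61, adjusted p = 0.0344). Mt-nd1, Mt-nd5, Mt-cyb and Mt-co3 had log2 changes of -2.35, -2.36, -2.33 and -2.45 (adjusted p = 0.0247, 0.0271, 0.0335 and 0.0371). Mt-nd4l passed in every fit without 1 library, and the other 7 did not. Mt-atp8, Mt-nd2, Mt-nd1 and Mt-nd5 had adjusted p-values of 0.0532, 0.0613, 0.0728 and 0.0776 without KYDS 3. Mt-co1, Mt-cyb and Mt-co3 had adjusted p-values of 0.0991, 0.0958 and 0.108 without CON 2. Because these genes make up most of the TPM in CON, they also set the level of every other gene before scaling, and fewer mitochondrial transcripts cannot be told apart from more nuclear ones in such values.

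Of the listed nuclear genes of the same chain 1 rose and 0 fell of 73 tested, 64 of them above 0 (median 0.37). The 1 call is 1.37% of the list, below the 6.27% of all tested genes. Cox6b1, a cytochrome oxidase subunit, was the 1 call counted in the list (185 ± 64.4 in KYDS against 92.7 ± 14.2 in CON, log2 change 0.94 ± 0.25, adjusted p = 0.0341, and 0.0991 without CON 2). Ndufa4 and Atp5mg had log2 changes of 1.26 and 0.90 (adjusted p = 0.0542 and 0.096). Ndufv3, a complex I subunit whose call is not counted there, rose (log2 change 5.57, adjusted p = 0.00852). It passed in all 10 fits without 1 CON or KYDS library. Among the listed genes of mitochondrial expression and import 2 rose and 0 fell of 43 tested, 4.65% against 6.27% of all tested genes. Mrpl38, a mitochondrial ribosomal protein not counted there, fell (log2 change -1.28, adjusted p = 0.0126) and passed in all 10 fits without 1 CON or KYDS library. Polg, the polymerase that copies mitochondrial DNA, measured 4.98 ± 2.34 in KYDS against 1.67 ± 0.228 in CON (log2 change 1.22 ± 0.27, adjusted p = 0.0158) and passed in every fit without 1 library, and Clpx, of the mitochondrial protease ClpXP, measured 2.98, 4.02, 5.08, 3.76 and 4.21 in CON 1 to 5 and 11.6, 11.7, 5.12, 18.5 and 6.56 in KYDS 1 to 5 (log2 change 1.2 ± 0.28, adjusted p = 0.021) and passed with the covariate (log2 change 1.7, adjusted p = 0.0363), though it missed the threshold in 1 fit (adjusted p 0.0518 without CON 1). Fastkd1, which acts on mitochondrial RNA, had a mean of 1.61 against 4.57 (log2 change -1.29, adjusted p = 0.0501).

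No gene passed with limma in 4 housekeeping lists, which do not hold every gene of their kind. Not counted in them, Smpd1, a lysosomal enzyme, rose (log2 change 1.5, adjusted p = 0.0153) and Dnajb6, a chaperone, fell (log2 change -1.1, adjusted p = 0.0115). At an unadjusted p under 0.05, which 24.1% of all tested genes reached, the 4 lists held 5 of 70 cytosolic ribosomal proteins (median -0.20), 8 of 38 splicing factors (median 0.092), 2 of 28 cytosolic chaperones (median -0.15) and 15 of 36 lysosomal genes (median 0.31). Of 35 proteasome genes Psmc4 fell (27 ± 3.75 in KYDS against 51.3 ± 13.4 in CON; log2 change -0.89 ± 0.23, adjusted p = 0.0315; log2 change 0.46 without scaling; 0.0939 without CON 2), and Psmd4 and Psmd3 had log2 changes of -0.65 and 0.62 (adjusted p = 0.0639 and 0.132; log2 change 0.71 for Psmd4 without scaling). The proteasome call is 2.86% of its list, against 6.27% of all tested genes. Of cytoskeletal genes 1 rose and 3 fell of 39 tested. Vim, Gsn and Tpm4 had log2 changes of -0.96, -0.94 and -1.59 (adjusted p = 0.0435, 0.0467 and 0.0474), and Vim and Gsn had log2 changes of 0.35 and 0.19 where libraries were not scaled. Vim and Tpm4 had adjusted p-values of 0.106 and 0.129 without CON 2. Gsn had an adjusted p of 0.114 without KYDS 3.

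Several of the fallen genes with the largest changes are known mainly from tissues other than liver. Nrg4, neuregulin 4, a secreted ligand of the ErbB4 receptor that acts on liver, measured 23.3, 22.1, 14.5, 11.8 and 17.7 in CON 1 to 5 and 2.04, 0.547, 3.001, 1.56 and 1.07 in KYDS 1 to 5. Nrg4 fell (log2 change -3.18 ± 0.37, adjusted p = 0.000121). The groups are far apart, every fit without 1 library kept the call, and so did the covariate (log2 change -3.23, adjusted p = 0.00803). Vom2r80, a vomeronasal receptor, measured 10.6, 7.73, 67.8, 8.47 and 8.63 in CON 1 to 5 and 1.44, 0.98, 0, 0.771 and 0.416 in KYDS 1 to 5. Vom2r80 fell (log2 change -3.64 ± 0.58, adjusted p = 0.00175). Zfp366, a zinc finger factor, measured 9.51, 20.1, 76.1, 2.79 and 5.2 in CON 1 to 5 and 0.353, 0.87, 0.398, 1.25 and 0 in KYDS 1 to 5. Zfp366 fell (log2 change -3.66 ± 0.78, adjusted p = 0.0129). All 3 passed in each of the 20 fits without 1 library, and CON 3 had the highest value of both Vom2r80 and Zfp366.

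Scgb1d4, a secretoglobin, measured 1385, 483, 2593, 724 and 1053 in CON 1 to 5 and 245, 126, 1.0005, 76 and 0.799 in KYDS 1 to 5. Scgb1d4 fell (log2 change -5.62 ± 1.43, adjusted p = 0.0299). KYDS 3 and KYDS 5 were near 1 and the other 3 hydrocortisone rats between 76.0 and 245. Ly75, an endocytic receptor of dendritic cells, measured 22.5, 18.5, 21.9, 13.1 and 8.61 in CON 1 to 5 and 0.0694, 0.448, 0.824, 5.33 and 4.17 in KYDS 1 to 5. Ly75 fell (log2 change -3.19 ± 0.77, adjusted p = 0.0236). Akr1c19, an aldo-keto reductase, measured 154, 291, 1369, 146 and 130.0 in CON 1 to 5 and 46.7, 49.9, 6.23, 115 and 11.7 in KYDS 1 to 5. Akr1c19 fell (log2 change -3.14 ± 0.89, adjusted p = 0.045). Dok6, an adaptor of receptor kinases, measured 0.27 ± 0.387 in KYDS against 6.72 ± 5.31 in CON (log2 change -3.03 ± 0.68, adjusted p = 0.0177). Arhgap40, a GTPase-activating protein, measured 0.597 ± 1.1 in KYDS against 26.3 ± 32.3 in CON (log2 change -4.22 ± 0.94, adjusted p = 0.0172). Groups that do not overlap were a condition for naming these 5 genes, and each of the 5 calls was lost without 1 library. Scgb1d4, Ly75, Akr1c19 and Arhgap40 had adjusted p-values of 0.0897, 0.0623, 0.123 and 0.0503 without KYDS 3. Dok6 had an adjusted p of 0.0506 without CON 2.

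Of genes of neurons and retina 0 rose and 5 fell of 20 tested (median -1.09). Atl1, which shapes the endoplasmic reticulum of long axons, measured 107, 104, 552, 53.2 and 73.5 in CON 1 to 5 and 8.81, 0.676, 0.881, 34.8 and 2.99 in KYDS 1 to 5. Atl1 fell (log2 change -4.73 ± 1.34, adjusted p = 0.0449). Gria4, a glutamate receptor subunit, measured 131, 178, 595, 86.3 and 81.3 in CON 1 to 5 and 51.3, 25.2, 6.96, 43.5 and 20.8 in KYDS 1 to 5. Gria4 fell (log2 change -2.68 ± 0.76, adjusted p = 0.0437). Cabp5, a calcium-binding protein of retina, measured 80.9, 50.6, 95.8, 60.5 and 77.7 in CON 1 to 5 and 33.3, 15.7, 0, 3.94 and 0.599 in KYDS 1 to 5. Cabp5 fell (log2 change -4.09 ± 0.95, adjusted p = 0.0207). Kcnq3, a potassium channel subunit, measured 0.98, 1.86, 21.3, 1.34 and 2.11 in CON 1 to 5 and 0.116, 0.0348, 0, 0.191 and 0.0111 in KYDS 1 to 5. Kcnq3 fell (log2 change -2.52 ± 0.52, adjusted p = 0.0117). Nlgn1, a synaptic adhesion protein, measured 0.491 ± 0.742 in KYDS against 8.88 ± 12.3 in CON (log2 change -2.8 ± 0.67, adjusted p = 0.0226). CON 3 was highest in each of Atl1, Gria4, Cabp5, Kcnq3 and Nlgn1. Kcnq3 passed in every fit without 1 library and the other 4 did not. Atl1 and Gria4 had adjusted p-values of 0.117 and 0.121 without KYDS 3. Cabp5 and Nlgn1 had adjusted p-values of 0.0608 and 0.0634 without KYDS 5.

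Of the muscle list 0 rose and 3 fell of 14 tested (median -0.70): Myh15, a myosin heavy chain, measured 100.4, 102, 487, 52.7 and 72.3 in CON 1 to 5 and 9.5, 4.003, 0.921, 24.1 and 5.3 in KYDS 1 to 5, and Myom1 and Myom2, proteins of the sarcomere's middle, had log2 changes of -1.93 and -2.31 (adjusted p = 0.0222 and 0.0379). Myh15 fell (log2 change -4.21 ± 1.21, adjusted p = 0.0467). Myh15 and Atl1 were both highest in CON 3 and lowest among CON in CON 4, and in KYDS 2 they measured 4 and 0.676. Of the motile cilium list 0 rose and 2 fell of 11 tested: Dnah7, a dynein heavy chain, measured 4.69, 0.907, 174, 1.66 and 9.9 in CON 1 to 5 and 0, 0, 0, 0.397 and 0.00555 in KYDS 1 to 5. Dnah7 fell (log2 change -3.79 ± 0.92, adjusted p = 0.0242). Rsph9, of the radial spoke, measured 2.15 ± 0.554 in KYDS against 5.27 ± 1.61 in CON (log2 change -1.1 ± 0.29, adjusted p = 0.0332; log2 change 0.057 without scaling). Dnah2 had a mean of 1.02 against 8.25 (log2 change -2.18, adjusted p = 0.0936). Each of these 5 calls was lost without 1 library. Myh15, Myom1, Myom2 and Dnah7 had adjusted p-values of 0.124, 0.0631, 0.0977 and 0.0629 without KYDS 3. Rsph9 had an adjusted p of 0.0958 without CON 2. CON 3 was the highest vehicle library in 47.8% of the 358 fallen genes and in 30.1% of all tested genes, and KYDS 3 the lowest hydrocortisone library in 61.5% of the fallen genes and 32.7% of all. Why genes of these tissues are listed at such levels in liver was not tested.

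Outside the naming rule, 8 genes not described above were chosen after their values were seen, because they passed in the fit with the covariate. Fmo2, a flavin monooxygenase, measured 14.1, 18.4, 13.7, 11.5 and 7.79 in CON 1 to 5 and 0.706, 1.2, 0.586, 2.71 and 1.67 in KYDS 1 to 5. Fmo2 fell (log2 change -2.92 ± 0.37, adjusted p = 0.000325). Nmrk1, which makes NAD from nicotinamide riboside, measured 25.1, 21.4, 57.7, 11.4 and 16 in CON 1 to 5 and 3.03, 1.93, 1.34, 5.55 and 1.86 in KYDS 1 to 5. Nmrk1 fell (log2 change -2.96 ± 0.40, adjusted p = 0.000487). Rmdn2, a microtubule regulator, measured 0.804, 0.648, 0.81, 1.59 and 1.29 in CON 1 to 5 and 11.7, 6.33, 6.61, 8.22 and 4.09 in KYDS 1 to 5. Rmdn2 rose (log2 change 2.33 ± 0.26, adjusted p = 0.000121). Bmf, a protein that promotes cell death, measured 1.17, 1.3, 1.19, 1.84 and 1.8 in CON 1 to 5 and 7.2, 5.75, 5.45, 4.28 and 5.47 in KYDS 1 to 5. Bmf rose (log2 change 1.64 ± 0.19, adjusted p = 0.000121). Olr59, an olfactory receptor, measured 4.93 ± 3.27 in KYDS against 0.351 ± 0.216 in CON (log2 change 2.53 ± 0.34, adjusted p = 0.000487). Tsc22d1 and C2cd5 had log2 changes of 1.63 and 1.11 (adjusted p = 0.00163 and 0.00304), and Fras1 -1.96 (adjusted p = 0.0129). None of these 8 had overlapping groups, nor did 230 of the 386 risen and 238 of the 358 fallen genes. For genes chosen by their p this is no further result.

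The labelled tissue was checked on markers of liver and other cells. All 14 hepatocyte markers in the table were above 0 in at least 1 library, with summed scaled TPM of 5922 to 10084 in CON and 6924 to 64998 in KYDS, and 3 of the 14 rose, namely Ttr, Apob and Tf. The median log2 change of the 14 was 0.96, with 13 above 0, beside 0.05 for all tested genes, 0.95 for the coagulation and complement list and 1.04 for the lipoprotein list. The part of the markers' levels in the changes above was not tested. For none of the 14 marker lists did the summed levels of KYDS and CON stand apart. Kupffer cell and macrophage markers summed to 79.7 to 129.8 in CON and 109 to 279.6 in KYDS. Cd163, a scavenger receptor of macrophages, was the 1 of 15 that rose (3.46, 1.99, 4.21, 4.25 and 9.96 in CON 1 to 5 and 11.1, 9.17, 33.6, 21.8 and 15.4 in KYDS 1 to 5; log2 change 1.84 ± 0.40, adjusted p = 0.0151), and Marco and Cd68 had log2 changes of 1.27 and 0.90 (adjusted p = 0.148 and 0.325). Sinusoidal endothelial markers summed to 124.5 to 169.5 in CON and 111 to 126 in KYDS. Ptprb, a vascular phosphatase, fell (8.72 ± 5.64 in KYDS against 35.7 ± 21.7 in CON; log2 change -2.14 ± 0.63, adjusted p = 0.0491, and 0.131 without KYDS 3), and Stab2 and Flt1 had 0.62 and 0.49 (adjusted p = 0.233 and 0.329). In bulk tissue, fewer cells of a type and less RNA per cell cannot be told apart.

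Stellate cell markers summed to 64.1 to 236.5 in CON and 62.6 to 111.3 in KYDS. Pdgfrb, the PDGF receptor of stellate cells, rose (4.42, 1.43, 1.52, 1.88 and 1.38 in CON 1 to 5 and 9.49, 9.19, 10.2, 4.38 and 15.8 in KYDS 1 to 5; log2 change 1.98 ± 0.33, adjusted p = 0.0023), with CON 1 just above the lowest KYDS value, while Cygb and Dcn of the same list had -0.87 and -0.70 (adjusted p = 0.056 and 0.164; log2 changes 0.24 and 0.38 without scaling). Of 28 matrix genes 1 rose, 3.57% against 6.27% of all tested genes. Fn1, fibronectin, rose and measured 28 ± 13.2 in KYDS against 5.59 ± 3.18 in CON (log2 change 2.28 ± 0.51, adjusted p = 0.0168). Fn1 passed in all 10 fits without 1 CON or KYDS library, but only just without KYDS 3 (adjusted p 0.05 after rounding). Mmp14 and Col18a1 had log2 changes of 0.80 and 1.4 (adjusted p = 0.102 and 0.13). Of the zone markers, Gulo, the last enzyme of vitamin C synthesis, rose in the pericentral list (8.35, 5.79, 7.35, 17.5 and 11.4 in CON 1 to 5 and 35.3, 49.98, 59.1, 33.9 and 43.6 in KYDS 1 to 5; log2 change 2.15 ± 0.34, adjusted p = 0.00163), where Lhpp and Rgn had 0.78 and 0.94 (adjusted p = 0.0749 and 0.082). Cdh1, E-cadherin, and Aldh1b1, an aldehyde dehydrogenase, rose in the periportal list (5.26 ± 2.28 in KYDS against 1.28 ± 0.773 in CON for Cdh1, log2 change 1.73, adjusted p = 0.0129; 0.847 ± 0.347 in KYDS against 0.141 ± 0.082 in CON for Aldh1b1, log2 change 1.03, adjusted p = 0.0224). Cd163, Pdgfrb, Gulo and Cdh1 passed in every fit without 1 library. Aldh1b1 passed in the 15 such fits in which it was tested.

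Markers of other tissues and of blood cells overlapped between the groups. Erythroid markers, which come with blood in the tissue, summed to 621 to 2619 in CON and 1039.5 to 2864 in KYDS, and Hbe1 was listed at 0 in all 10 libraries. Neutrophil markers summed to at most 33.1, T and NK cell markers to at most 21.4, and kidney and adrenal markers to at most 2.46. Pancreas and gut markers summed to 11.9 to 25.2 in CON and 14.6 to 46.8 in KYDS. There Cela1, an elastase that rat liver can also express, rose (27.1 ± 12.2 in KYDS against 11.9 ± 3.66 in CON; log2 change 1.09 ± 0.29, adjusted p = 0.0365), Prss1, trypsinogen, fell (0 to 0.288 in KYDS against 0 to 1.8 in CON; log2 change -1.29, adjusted p = 0.0497), both lost without 1 library, and Ctrb1 had a log2 change of -1.41 (adjusted p = 0.102). Cela1 had an adjusted p of 0.103 without CON 2. Prss1 had an adjusted p of 0.116 without KYDS 3.

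The 10 rats that received BGZ_L give a second comparison of hydrocortisone with none, with no library in common. Its libraries lean the same way as those of the first. The mitochondrial share averaged 48.9% in KYDS+BGZ_L and 67.3% in BGZ_L, and the scaling factor 1.29 and 0.785. The part of that shift in the genes that passed in both comparisons was not tested. KYDS+BGZ_L against BGZ_L had 2062 of 11869 genes passing (17.4%). Of the 386 genes risen in KYDS, 230 also rose there and 156 did not pass, 148 of them with the same sign. Of the 358 fallen genes, 263 also fell and 95 did not pass, 88 of them with the same sign. Of the 9556 genes that passed in neither comparison, 6995 also had the same sign in both, so a shared sign is common among all genes. The fit estimates both from 1 shared spread. Among the leading genes the log2 change there was 5.4, adjusted p = 2.23e-05, for Ces2c and 3.41, adjusted p = 4.44e-05, for Gckr. It was 3.83, adjusted p = 0.0129, for G6pc, 2.95, adjusted p = 0.000997, for Tymp, -3.31, adjusted p = 2.88e-05, for Nrg4 and -4.96, adjusted p = 0.0232, for Scgb1d4. All 6 passed in both comparisons in the same direction. Cyp8b1, Scd, Inhbe and Ldha did not pass there, with log2 changes of 0.47, adjusted p = 0.587, for Cyp8b1, 1.2, adjusted p = 0.112, for Scd, 0.81, adjusted p = 0.179, for Inhbe and 1.07, adjusted p = 0.0869, for Ldha. The mitochondrially encoded Mt-nd4l had -0.97, adjusted p = 0.244. Pck1 had -0.86, adjusted p = 0.0742, and Tat -0.86, adjusted p = 0.0345. Of the receptor targets described above as called, Dusp1, Errfi1 and Anxa1 did not pass there. Their log2 changes were 1.16, -0.27 and -0.88 (adjusted p = 0.0601, 0.64 and 0.0781).

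**Figure D5:**
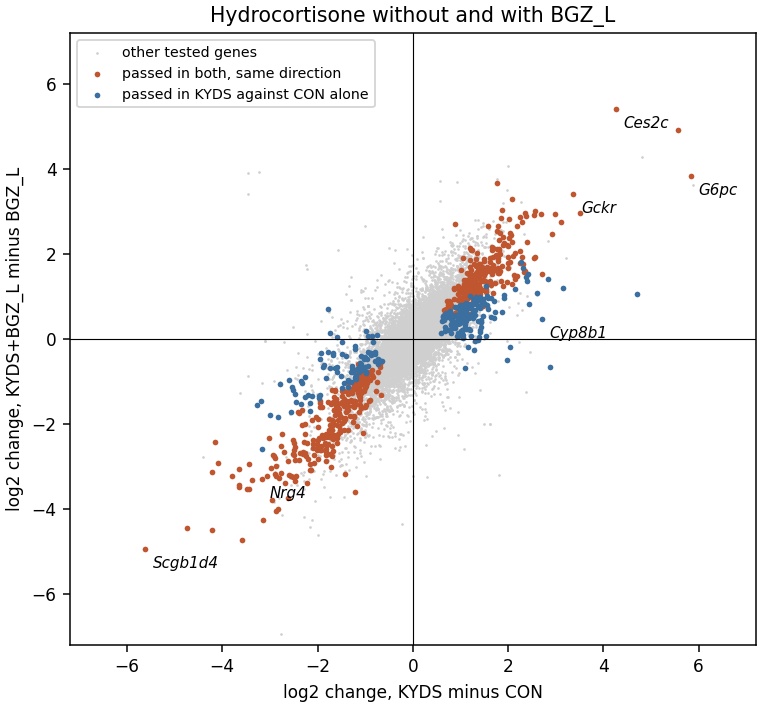
Log2 change of KYDS against CON (horizontal) and of KYDS+BGZ_L against BGZ_L (vertical) for the 11869 tested genes, with 744 genes that passed in the first comparison coloured by whether they passed in the second in the same direction. All but a few coloured points lie in the quadrants of equal sign, as do 6995 of the 9556 genes that passed in neither comparison. In both comparisons 230 risen and 263 fallen genes passed.

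The difference between both comparisons was tested as an interaction, and 3 genes passed (447 at an unadjusted p under 0.05, limma), so a gene that passed in one comparison and not in the other is not thereby shown to differ. Dbp, a clock output factor, had a log2 change of -0.23 with hydrocortisone alone (0.21 without KYDS 4, and 1.11 without scaling) and -4.37, adjusted p = 1.54e-06, in rats given BGZ_L (interaction -4.14 ± 0.54, adjusted p = 0.00307). Nr1d1, the clock repressor REV-ERB-alpha, had 0.28 and -2.5, adjusted p = 4.5e-05 (interaction -2.78 ± 0.42, adjusted p = 0.0112). Dipk2a, a secreted kinase-like protein, had 0.88 and 2.71, adjusted p = 8.93e-07 (interaction 1.83 ± 0.31, adjusted p = 0.0335). Dipk2a rose in both comparisons and more in the second, and its call with hydrocortisone alone was lost without 1 library (adjusted p 0.0724 without KYDS 3).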

How the data were processed

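Liver RNA of 20 rats was sequenced and read 1 alone was used, per the labels. The authors deposited 1 table whose values were read as TPM from their sums and decimals, as the labels name no unit. The submitters' processing notes name the mouse builds GRCm38, mm10 and GRCm39 for these rat samples. The aligner, the counter and the annotation release are not stated there, so no coordinates other than those of RefSeq GRCr8 promoters are given. Libraries were scaled by an unweighted trimmed mean of log ratios, 0.5 was added and log2 taken. Genes at 0.5 TPM or more in at least 5 libraries were fitted with limma 3.58.1 (R 4.3.3, trended and robust prior, 4 group means, 16 residual degrees of freedom) and Benjamini-Hochberg adjustment over all tested genes, with a threshold of 0.05. Because of the constant, a log2 change understates the change of low genes. Named genes are the 12 highest and 12 lowest log2 changes among called genes with separate groups, a mean log2 value of at least 1 and a settled symbol; the 3 members with the smallest p of each list with a call; 10 genes chosen for their known roles; and the 10 highest nuclear genes. Some genes that the rule names are not reported here. Other genes, including further called list members, were chosen after their values were seen. The members, lists and rules were chosen with earlier results of these data known. Alternatives covered scaling, constant, filter, libraries, covariate, weights, prior and a replicate block.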

Additional observations from a re-analysis of the deposited data

Results flagged for a closer look

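Values of single libraries that stood apart from the other 4 of their group were looked for in 470 groups of 5 (each named gene and the mitochondrial share, in CON and in KYDS), where chance alone gives about 1 in 20. Those found are about as many as that rate gives over 470 groups, so the list shows no excess. The gap to the nearest library had to exceed 0.71 of the group's range, on the log2(scaled TPM + 0.5) scale for genes. The values printed are scaled TPM. High values were those of G6pc at 22.7 in CON 4 (the other 4 0 to 0.236), Ldha at 32.6 in CON 3 (the other 4 19.7 to 22.3) and Vom2r80 at 67.8 in CON 3 (the other 4 7.73 to 10.6). Also high were Kcnq3 at 21.3 in CON 3 (the other 4 0.98 to 2.11), Pdgfrb at 4.42 in CON 1 (the other 4 1.38 to 1.88) and Upp2 at 22.1 in CON 3 (the other 4 4.73 to 7.31). Also high were Mcm7 at 11.5 in CON 2 (the other 4 5.32 to 5.74), C6 at 8.36 in CON 4 (the other 4 5.98 to 6.52) and Etfdh at 20.1 in CON 3 (the other 4 6.96 to 9.07). Also high were Gda at 7.84 in CON 3 (the other 4 3.02 to 3.67), Dnah7 at 0.397 in KYDS 4 (the other 4 0 to 0.00555) and Cars at 4.29 in KYDS 1 (the other 4 3.55 to 3.7). Also high were Dgat2 at 59.8 in KYDS 3 (the other 4 34.5 to 40.3), Dcn at 3.69 in KYDS 2 (the other 4 1.78 to 1.95) and Pgm1 at 20.5 in KYDS 3 (the other 4 9.27 to 11.6). Also high were Ccnd2 at 0.351 in KYDS 4 (the other 4 0.0348 to 0.111) and Slc25a47 at 150.4 in KYDS 4 (the other 4 58.4 to 75.2). Low values were those of Orm1 at 69.9 in CON 3 (the other 4 113 to 126), Cox6b1 at 68.3 in CON 2 (the other 4 93.4 to 104) and Stab2 at 1.16 in CON 3 (the other 4 4.06 to 5.68). Also low were Slc39a8 at 0.605 in CON 2 (the other 4 1.9 to 2.24), Nt5e at 4.4 in KYDS 4 (the other 4 9.39 to 11.8) and Dbp at 10.6 in KYDS 4 (the other 4 42 to 65). The calls of G6pc, Ldha, Vom2r80, Kcnq3, Pdgfrb and Dgat2 were kept in each fit without 1 library.

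The effect of hydrocortisone differed between rats with and without BGZ_L for 3 genes, by the interaction term of the limma fit. The difference in log2 change was 1.83 for Dipk2a (adjusted p = 0.0335), -2.78 for Nr1d1 (adjusted p = 0.0112) and -4.14 for Dbp (adjusted p = 0.00307). Dbp in KYDS 4, at 10.6, was also the lowest of its group, and without that library the log2 change of Dbp in KYDS against CON was 0.21.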

How the results depend on the processing

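The count of 744 genes (386 higher, 358 lower) was 5933 with no scaling (5867 higher, 66 lower), 116 with nuclear genes as the total (91 and 25), 367 with no filter (207 and 160), 257 with KYDS and CON samples alone (122 and 135), and 23 with the covariate (19 and 4). It ranged from 224 to 1075 without 1 library, with 142 to 563 higher and 70 to 512 lower. Lowest were the fits without KYDS 3 (224), KYDS 5 (224), CON 2 (249), CON 1 (324), CON 3 (346), KYDS 1 (399) and KYDS 2 (428). Median-ratio scaling, a constant of 0.1 or 1, a filter of 2 TPM, array weights and a plain prior gave 667 to 742 genes. Without CON 2 and BGZ_L 3, an alternative chosen after seeing the data, 256 passed (143 and 113). The count of 2062 in rats given BGZ_L was 634 with nuclear genes as the total, 669 with the covariate, 1362 without CON 2 and BGZ_L 3, and 1102 to 2517 without 1 library, where it fell most without BGZ_L 3 (1336), KYDS+BGZ_L 1 (1140) and KYDS+BGZ_L 4 (1102). The difference in mitochondrial share ran from -39.3 to -26.9 percentage points without 1 library. With the replicate number as a block 557 genes passed (281 and 276). The numbers did not pair the samples, since 1 of 5 KYDS and CON pairs had a correlation above 0.1 (-0.12 to 0.21) and 2 of 20 samples correlated best with their own number. Log2 changes that turned sign with no scaling were 0.35 for Vim, 0.19 for Gsn, 0.24 for Cygb, 0.38 for Dcn, 0.46 for Psmc4, 0.71 for Psmd4, 0.18 for Polk, 0.43 for Phkb, 0.11 for Cyp4b1, 0.57 for Akr1d1, 0.046 for Per2, 0.65 for Tef, 0.19 for Mcm7, 0.63 for Nfkbia, 0.057 for Rsph9, 0.29 for Fkbp5, 0.60 for Tsc22d3, 0.27 for Cyp7a1, 0.35 for Rn5-8s, 0.17 for Gda, 0.41 for Hpd and 1.11 for Dbp. With the covariate they were -0.076 for Mup5, 0.028 for Phkb, -0.28 for Pck1, -0.063 for Nr3c1, -0.088 for Tat, -0.042 for Alb, -0.20 for Apoe and -0.39 for Apoa2. Pck1 was -0.049 with array weights. Without 1 library Pck1 ran from -0.14 to 0.20 (below 0 without CON 4 and KYDS 3), Apoa2 from -0.030 to 0.71 (below 0 without CON 3) and Dbp from -0.44 to 0.21 (above 0 without KYDS 4). Apart from the effect of fewer samples or genes, the cause was not tested. Depth is unknown, so the counting error of low genes cannot be given.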
